A study of Mus musculus with 24 samples.

Results

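The sites described here are stretches of DNA listed as sites of the transcription factor MYT1L in the cortex of adult mice of both genotypes and in the list of neither younger stage. A site missing from a list was not shown to be unbound. They were chosen by overlap alone. An adult WT site was kept when it overlapped an adult HET site by 1 bp or more and overlapped nothing in the E18.5 and P0 lists. This rule selected 1977 of the 32145 adult WT sites (6.15%), which lay over 2056 of the 56937 adult HET sites (3.61%). They are called the common sites below. The overlap that chose them is given as a description and was not tested.

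The study mapped MYT1L by CUT&RUN, in which an antibody brings a nuclease to its target so that the DNA cut out around the bound protein can be sequenced. Each site list was merged over 3 MYT1L libraries, and 3 libraries with control IgG were made beside each group. The adult HET mice were 3 months old. They carried 1 Myt1l allele with a frameshift deletion made in the germ line, so that every cell type was mutant. Their background was labelled C57BL/6J, whereas the methods name C57BL/6N for the edited zygotes and for the mates of the founders. The adult WT mice were 3 months old and carried intact Myt1l alleles. The P0 WT mice were newborn, and the E18.5 WT mice were late embryos. Adult and P0 tissue was labelled prefrontal cortex, E18.5 tissue was labelled cortex, and the methods name prefrontal cortex for all. Sex was not given. Both adult groups carried the label seq_id 2 and both young groups seq_id 1. The sample labels used here do not say what seq_id stands for. What it marks and developmental stage cannot be told apart. Some adult libraries carry Myt2l or Myt3l in place of Myt1l in their titles, although the antibody field names MYT1L for all of them. The lists carry no read depth and no value per animal, so no replicate error could be given. The tests below compare sets of sites within these lists, and their p-values do not measure the spread between animals. In bulk tissue, fewer cells with bound MYT1L and less binding per cell cannot be told apart, and a site list cannot show which cells bound MYT1L, so the labelled tissue could not be checked by expression markers.

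MYT1L is a zinc finger protein found almost only in neurons. It is known for repressing genes of other lineages while neurons form, and its core recognition word is AAAGTT. The adult cortex that it occupies is rich in distal enhancers, many of which are opened by activity-induced factors such as the FOS and JUN dimers of AP-1 and the EGR proteins. Enhancers of cortical excitatory neurons are also rich in the E-box word CAGATG, which is read by NEUROD and related bHLH factors.

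The sequence of the core shared by both genotypes is shown for 6 common sites, because these stretches were occupied in adult HET and adult WT alike. They are the longest cores of 40 to 300 bp at promoters, in introns and between genes, 2 of each, with under 20% repeat bases and no annotated exon. All are written 5′ to 3′ on the plus strand of mm10. Capitals mark words, on either strand, that were found more often in the common sites than in WT-only sites.
Ska2, chr11:87108815-87109110: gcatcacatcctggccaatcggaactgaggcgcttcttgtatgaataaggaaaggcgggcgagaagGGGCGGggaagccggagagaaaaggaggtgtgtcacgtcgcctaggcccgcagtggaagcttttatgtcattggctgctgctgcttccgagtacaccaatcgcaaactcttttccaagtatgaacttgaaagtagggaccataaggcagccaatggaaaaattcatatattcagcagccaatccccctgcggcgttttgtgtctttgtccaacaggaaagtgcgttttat
Khsrp, chr17:57031681-57031961: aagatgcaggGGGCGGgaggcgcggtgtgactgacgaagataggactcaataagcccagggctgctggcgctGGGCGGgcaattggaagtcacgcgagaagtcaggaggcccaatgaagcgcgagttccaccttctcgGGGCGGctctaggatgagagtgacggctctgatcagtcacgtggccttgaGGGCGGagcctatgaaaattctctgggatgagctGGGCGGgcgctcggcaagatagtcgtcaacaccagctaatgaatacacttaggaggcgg
Fez1, chr9:36907148-36907445: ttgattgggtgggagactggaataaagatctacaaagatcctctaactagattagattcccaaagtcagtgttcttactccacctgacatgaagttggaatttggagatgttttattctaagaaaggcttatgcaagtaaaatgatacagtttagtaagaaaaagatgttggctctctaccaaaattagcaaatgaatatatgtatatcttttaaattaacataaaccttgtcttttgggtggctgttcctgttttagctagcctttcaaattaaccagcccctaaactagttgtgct
Sorbs2, chr8:45559246-45559542: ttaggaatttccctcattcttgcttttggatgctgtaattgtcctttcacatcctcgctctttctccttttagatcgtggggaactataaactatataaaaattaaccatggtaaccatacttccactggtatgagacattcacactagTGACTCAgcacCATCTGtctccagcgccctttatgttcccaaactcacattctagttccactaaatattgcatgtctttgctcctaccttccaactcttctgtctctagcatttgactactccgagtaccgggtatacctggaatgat
Fam19a1, chr6:96098258-96098556: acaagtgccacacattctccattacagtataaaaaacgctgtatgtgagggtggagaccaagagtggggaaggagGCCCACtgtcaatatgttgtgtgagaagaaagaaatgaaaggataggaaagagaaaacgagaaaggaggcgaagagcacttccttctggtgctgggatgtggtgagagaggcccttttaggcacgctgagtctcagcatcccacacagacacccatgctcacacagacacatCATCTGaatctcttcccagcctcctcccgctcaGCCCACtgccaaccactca
Celf2, chr2:8276318-8276615: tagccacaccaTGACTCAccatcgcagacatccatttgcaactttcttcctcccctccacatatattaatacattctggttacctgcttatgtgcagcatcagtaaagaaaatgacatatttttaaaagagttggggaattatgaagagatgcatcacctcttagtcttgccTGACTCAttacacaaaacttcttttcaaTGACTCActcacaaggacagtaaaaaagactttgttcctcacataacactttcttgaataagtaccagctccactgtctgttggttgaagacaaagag

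The promoter cores lay 0.170 kb upstream of Ska2, a spindle and kinetochore gene, and 0.397 kb upstream of Khsrp, which encodes an RNA-binding protein. Both hold the GC-box word GGGCGG of the SP and KLF factors, once in the Ska2 core and 5 times in the Khsrp core. The intron core of Sorbs2, an adaptor of the actin cytoskeleton, holds the AP-1 word TGACTCA next to CATCTG, which is CAGATG on the other strand. The core 767 kb from Celf2, a gene for a splicing regulator, holds TGACTCA 3 times. The core 14.8 kb from Fam19a1, a gene for a secreted brain protein, holds the EGR word GTGGGC on the minus strand 2 times and CAGATG once. The core labelled Fez1, by the nearest start at 36.8 kb, lies in an intron of the homeobox gene Pknox2 and holds none of these words. Fez1 encodes an adaptor for axonal transport.

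The same choice, made for the words not yet seen above, gave 3 further stretches of 81 bp around a word. The word is CAGCTG near Macc1, the octamer ATTTGCAT of POU factors near Pla2g2c, and CTATTTTTA of MEF2 factors in an intron near 4933416C03Rik.
Macc1, chr12:119291936-119292016: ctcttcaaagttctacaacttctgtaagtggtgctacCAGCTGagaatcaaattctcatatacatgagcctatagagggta
Pla2g2c, chr4:138691638-138691718: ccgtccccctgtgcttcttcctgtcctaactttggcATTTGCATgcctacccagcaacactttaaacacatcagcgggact
4933416C03Rik, chr10:116117164-116117244: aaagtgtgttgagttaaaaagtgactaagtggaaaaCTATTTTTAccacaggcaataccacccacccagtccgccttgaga

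In most pairs the HET site was the narrower one, as HET sites were in general, with a median width of 108 bp in the whole adult HET list and 167 bp in the whole adult WT list. The overlapped HET sites had a median width of 147 bp (28.0 to 791 bp), against 292 bp (28.0 to 1204 bp) for the WT sites they overlapped. The WT site was the wider of the pair at 1685 of 1977 common sites (85.2%), and at 1061 (53.7%) it held the whole HET site. The shared core was 127 bp long at the median, with quartiles of 84.0 and 183 bp and a longest core of 791 bp. The midpoints of the 2 sites lay 51.0 bp apart at the median and within 75 bp at 1308 sites (66.2%). Of the common sites, 1894 overlapped 1 HET site, 78 overlapped 2 and 5 overlapped 3. In all, the WT sites covered 615 kb and the shared cores 285 kb.

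Few pairs lay close to the threshold of 1 bp, with a core under 10 bp at 27 common sites. The core was 50 bp or longer at 1779 common sites, but at least 50% of both sites was shared at only 843. Just inside the threshold, sites near Enox1, L3mbtl4, Zfp804b and Speer3 shared 1 bp with a HET site. Just outside it, sites near 4931408C20Rik, Gm21833, Ube2e3 and Prickle2 abutted a HET site without sharing a base. On the side of the young lists, 7 common sites lay within 100 bp of an E18.5 or P0 site and 88 within 1 kb, and the median distance was 23.2 kb. The closest were a site in the Tbl1xr1 region that abutted a young site and one near Hlf at 9 bp, where abutting counts as 1 bp.

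The common sites were wider than most of the adult WT list. WT-only sites, which overlapped no HET, E18.5 or P0 site, numbered 26232 and had a median width of 156 bp. The 716 adult WT sites shared with HET and with a young list had a median width of 328 bp. They are called sites shared with young cortex below. A further 3220 adult WT sites overlapped a young site but no HET site, and were not used as a comparison class. The common share of the list was 1.79% (95% exact binomial interval 1.35 to 2.31%) among sites of 26 to 93 bp and 18.9% (17.5 to 20.3%) among sites of 372 to 3684 bp. The sequence comparisons below were therefore also made within 10 classes of site width by a Cochran-Mantel-Haenszel test.

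**Figure D1:**
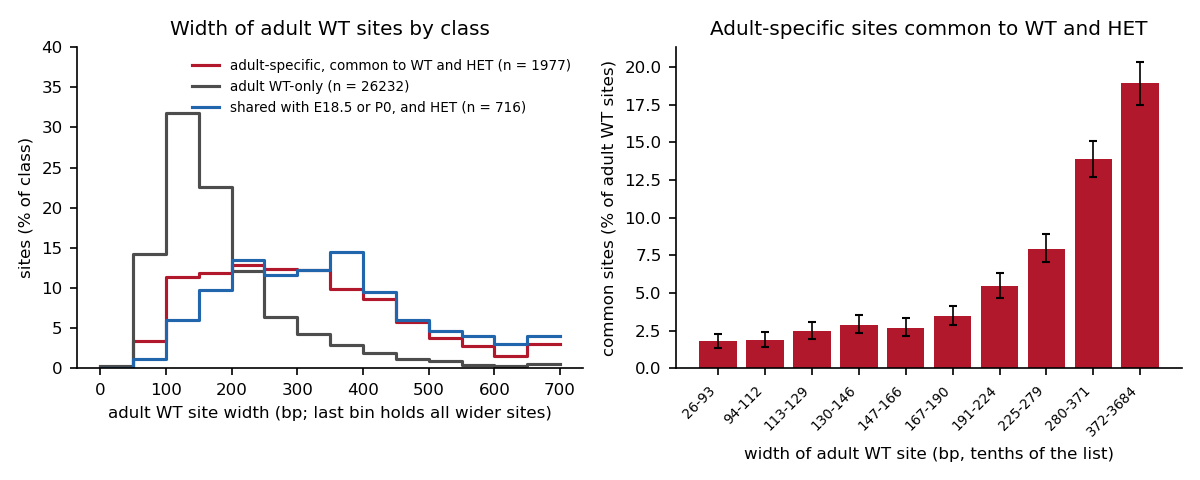
Left, width of adult WT sites in bp against the percent of sites in each class, for common sites (red), WT-only sites (grey) and sites shared with young cortex and HET (blue). Right, percent of adult WT sites that were common sites in each of 10 classes of site width, with 95% exact binomial intervals. The share is 1.79% in the narrowest class and 18.9% in the widest.

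The common sites lay away from promoters, in contrast to the adult WT sites shared with young cortex and HET. Positions of the adult WT sites shared with young cortex but absent from HET were not compared. By their midpoints, 91 of 1977 common sites (4.60%, 95% interval 3.72 to 5.62%) were at promoters, taken as the window from 1 kb before a transcription start to 100 bp after it, against 384 of 716 sites shared with young cortex (53.6%, 49.9 to 57.3%). The odds ratio was 0.0417 (0.0323 to 0.0539), with an adjusted p of 7.0e-171 by a two-sided Fisher's exact test with Benjamini-Hochberg adjustment over 8 tests. Introns held 928 common sites (46.9%), against 21.8% of sites shared with young cortex (odds ratio 3.18, adjusted p of 8.2e-33). Intergenic DNA held 845 common sites (42.7%), against 19.7% (odds ratio 3.04, adjusted p of 3.7e-29). Exons held 113 common sites (5.72%), against 4.89%, a difference that did not pass the test (adjusted p of 0.45). The median distance to the nearest protein-coding transcription start was 44.6 kb for common sites and 0.414 kb for sites shared with young cortex. At 660 common sites (33.4%) the nearest start was more than 100 kb away.

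Against WT-only sites the position differed little. Promoters held 4.60% of common and 4.24% of WT-only sites (odds ratio 1.09, 0.875 to 1.36, adjusted p of 0.45). The intron share was 46.9% for common and 43.5% for WT-only sites (odds ratio 1.15, adjusted p of 0.0052), and the intergenic share was 42.7% for common and 45.7% for WT-only sites (odds ratio 0.886, adjusted p of 0.017). Neither passed the test within classes of site width, where the odds ratios were 1.09 (adjusted p of 0.14) and 0.950 (adjusted p of 0.39), or with protein-coding transcripts only. On the HET side, 4.47% of the overlapped HET sites and 2.92% of HET-only sites were at promoters.

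Repeats were sparser in the common sites than in WT-only sites. Sites with at least 50% soft-masked repeat bases made up 176 of 1977 common sites (8.90%, 7.68 to 10.2%), 4867 of 26232 WT-only sites (18.6%, 18.1 to 19.0%) and 5 of 716 sites shared with young cortex (0.698%). The odds ratio was 0.429 (0.366 to 0.502) against WT-only sites (adjusted p of 5.7e-31) and 13.9 (5.69 to 33.9) against sites shared with young cortex (adjusted p of 1.2e-18). Within classes of site width the odds ratio against WT-only sites was 0.674 (adjusted p of 2.2e-06). The direction against WT-only sites depended on the measure. When any repeat base in a site was counted, the odds ratio was 1.43 (adjusted p of 2.3e-11), with median widths of 292 bp for common and 156 bp for WT-only sites. In the genome 36.4% of bases were soft-masked.

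**Figure D2:**
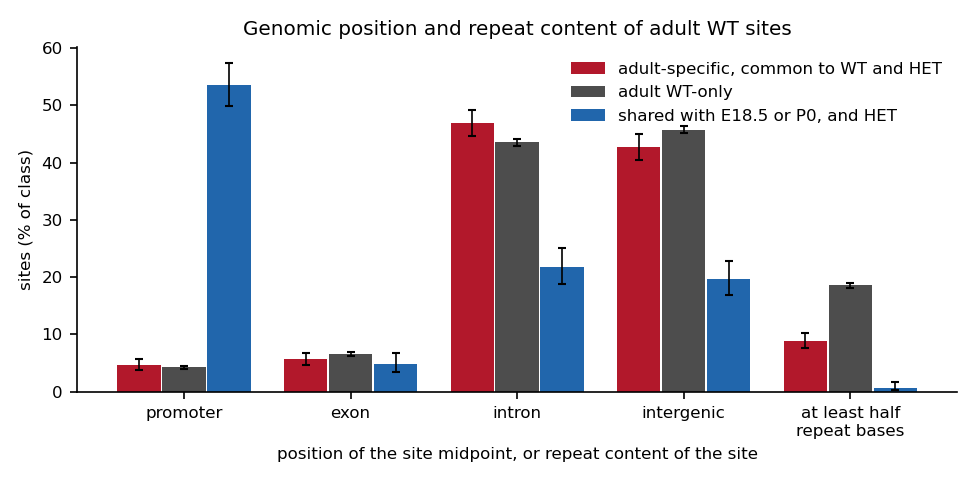
Percent of sites in each class by the position of the site midpoint, and percent with at least 50% repeat bases, with 95% exact binomial intervals. Common sites (red) and WT-only sites (grey) have promoter shares of 4.60% and 4.24%, and sites shared with young cortex and HET (blue) have 53.6%.

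The AP-1 word TGACTCA, the EGR word GTGGGC and the E-box word CAGATG were more frequent at the common sites than at WT-only sites. With site width held their odds ratios were smaller, and GTGGGC did not pass. Presence on either strand was scored for 26 words in the 151 bp around the midpoint of each adult WT site. In that window TGACTCA was found at 182 of 1977 common sites (9.21%, 7.97 to 10.6%), against 1420 of 26232 WT-only sites (5.41%, 5.14 to 5.69%) and 31 of 716 sites shared with young cortex (4.33%, 2.96 to 6.09%). The odds ratio was 1.77 (1.51 to 2.08, adjusted p of 1.0e-09) against WT-only sites and 2.24 (1.52 to 3.31, adjusted p of 6.5e-05) against sites shared with young cortex, by a two-sided Fisher's exact test adjusted over 52 tests. With at least 50% of both sites shared, the second odds ratio was 1.90 and missed the threshold (adjusted p of 0.054). In windows centred 1 kb to the lower and higher side of the same common sites it was found at 3.19% and 3.03%, and in windows across the genome at 2.35%. Over all 26 words, 12 (46.2%) passed the test against WT-only sites and 11 (42.3%) against sites shared with young cortex, so that a call was common in this set of words.

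CAGATG was also more frequent than in both other classes. It was found at 375 common sites (19.0%), 14.1% of WT-only sites (odds ratio 1.43, 1.27 to 1.61, adjusted p of 5.6e-08) and 13.8% of sites shared with young cortex (odds ratio 1.46, 1.15 to 1.85, adjusted p of 0.0068), and in 11.4% of genome windows. In the lower and higher flanks of the common sites its share was 11.4% and 9.91%. Against sites shared with young cortex it no longer passed within classes of GC content (odds ratio 1.24, adjusted p of 0.18). GTGGGC was found at 215 common sites (10.9%) and at 7.14% of WT-only sites (odds ratio 1.59, 1.37 to 1.84, adjusted p of 5.6e-08). In the lower and higher flanks its share was 4.45% and 5.11%. Its share of 9.36% at sites shared with young cortex did not differ past the threshold (odds ratio 1.18, 0.886 to 1.58, adjusted p of 0.39), but it did within classes of GC content (odds ratio 1.85, adjusted p of 0.0019). The factor names are labels of these 3 words, and the site lists show neither binding nor expression of the factors.

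Further words were more frequent at common sites than at WT-only sites. The MEF2 word CTATTTTTA was found at 32 common sites (1.62%) and 0.915% of WT-only sites (odds ratio 1.78, adjusted p of 0.012). The octamer ATTTGCAT was found at 56 common sites (2.83%) and 1.87% of WT-only sites (odds ratio 1.53, adjusted p of 0.015). CAGCTG was found at 7.54% of common and 5.99% of WT-only sites (odds ratio 1.28, adjusted p of 0.018). GGGCGG was found at 77 common sites (3.89%) and 1.88% of WT-only sites (odds ratio 2.11, adjusted p of 1.6e-07). It was concentrated at promoters, with 21 of 91 promoter common sites (23.1%) holding it against 2.13% of intergenic ones. Within classes of site width the calls of CTATTTTTA (odds ratio 1.31, adjusted p of 0.31), ATTTGCAT (1.41, adjusted p of 0.056) and CAGCTG (1.18, adjusted p of 0.18) were lost, and that of GGGCGG was kept. CAGCTG also lost its call within classes of GC content (1.12, adjusted p of 0.32).

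Other words were less frequent at the common sites than at WT-only sites. The nuclear receptor half-site AGGTCA was found at 50 common sites (2.53%) and 5.20% of WT-only sites (odds ratio 0.473, 0.355 to 0.629, adjusted p of 7.3e-08). The SOX word CATTGT was found at 6.32% of common and 8.55% of WT-only sites (odds ratio 0.722, adjusted p of 0.0015), and the forkhead word TGTTTAC at 1.16% of common and 2.13% of WT-only sites (odds ratio 0.542, adjusted p of 0.0075). The TA-rich word TATATA (odds ratio 0.805, adjusted p of 0.017) and the CA repeat CACACACA (odds ratio 0.717, adjusted p of 0.024) were also lower. Within classes of width the calls of CATTGT (odds ratio 0.834, adjusted p of 0.16), TGTTTAC (0.692, adjusted p of 0.21) and CACACACA (0.895, adjusted p of 0.59) were lost. For TATATA the odds ratio was 1.02 within classes of width and 1.14 within classes of GC content, with no call in either.

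Words typical of promoters separated the common sites from those shared with young cortex. GGGCGG was found at 3.89% of common sites and 24.3% of sites shared with young cortex (odds ratio 0.126, adjusted p of 7.5e-49). The ETS word CCGGAA was found at 1.37% of common sites and 10.2% of the shared sites (odds ratio 0.122, adjusted p of 1.6e-21). The half-site TGACGT of CREB and ATF was found at 1.26% of common and 5.87% of shared sites (odds ratio 0.206, adjusted p of 4.7e-09), and CACGTG of USF and MYC was found at 1.21% of common and 4.33% of shared sites (odds ratio 0.272, adjusted p of 1.3e-05). The CTCF word AGGGGGC (odds ratio 0.252) and the KLF word GGGTGTGG (odds ratio 0.260) were lower as well. The NRF1 word GCGCATGC was found at 0 of 1977 common sites, which has an upper 95% bound of 0.186%, and at 14 of 716 shared sites (1.96%). TATATA (odds ratio 3.70, adjusted p of 7.2e-09) and the homeobox word TAATTA (odds ratio 1.82, adjusted p of 0.032) were more frequent at common sites. The median GC content of the windows was 41.7% for common sites and 49.7% for shared sites. Within classes of GC content the calls were lost for CACGTG (odds ratio 0.468, adjusted p of 0.089), AGGGGGC (0.842, adjusted p of 0.73), GGGTGTGG (0.327, adjusted p of 0.053) and TAATTA (1.12, adjusted p of 0.74). GGGCGG at 0.382, CCGGAA at 0.247, TGACGT at 0.273 and TATATA at 2.16 still passed there. TAATTA (adjusted p of 0.059) and GGGTGTGG (adjusted p of 0.074) also missed the threshold when the windows of the common sites alone were centred on the shared core.

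**Figure D3:**
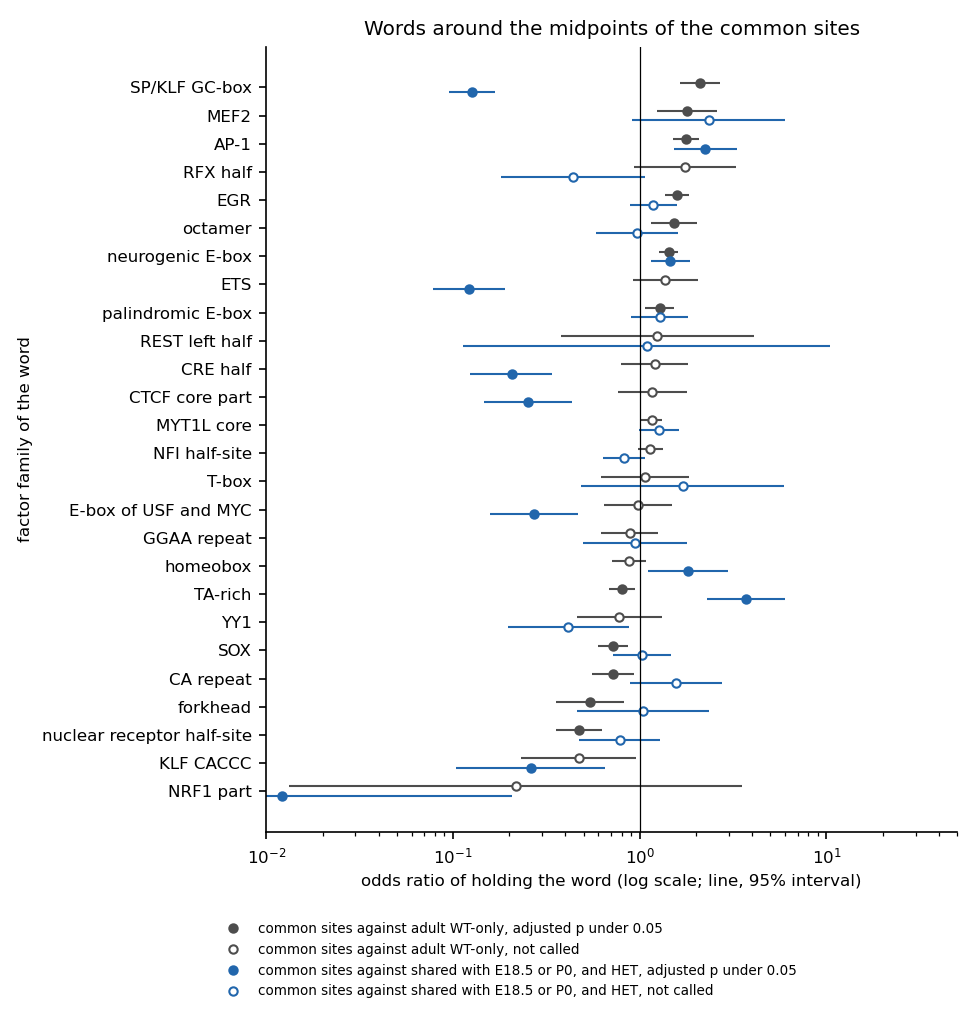
Odds ratio, on a log axis with its 95% interval, of holding each word for common sites against WT-only sites (grey) and against sites shared with young cortex and HET (blue), by factor family. Filled points passed an adjusted p of 0.05. The AP-1 and neurogenic E-box words lie above 1 in both comparisons (AP-1, 1.77 and 2.24).

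The MYT1L word itself was more frequent at the common sites than in the neighbouring DNA, and did not pass the test against the other classes. AAAGTT was found at 308 of 1977 common sites (15.6%, 14.0 to 17.3%), 13.8% of WT-only sites (13.4 to 14.2%) and 12.7% of sites shared with young cortex (10.4 to 15.4%). The odds ratios of 1.16 (1.02 to 1.31, adjusted p of 0.056) and 1.27 (0.986 to 1.63, adjusted p of 0.13) did not pass the threshold. In windows centred 1 kb to the lower side of the same sites it was found 213 times (10.8%). It was present in the site window alone at 265 sites and in the flank alone at 170, a ratio of 1.56 (exact McNemar test, two-sided, p = 6.1e-06). In windows across the genome it was found at 12.1%. With the windows of the common sites alone centred on the shared core, the odds ratio against WT-only sites was 1.22 (adjusted p of 0.005). The WT-only sites kept windows at their midpoints there, so the windows were unlike. Within classes of GC content the odds ratio was 1.29 (adjusted p of 5.8e-04). Within classes of site width it was 1.03 (adjusted p of 0.86).

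Fewer words passed against WT-only sites when site width was held. Within classes of width 5 words passed. TGACTCA kept an odds ratio of 1.29 (1.09 to 1.52, adjusted p of 0.012), CAGATG 1.18 (adjusted p of 0.025), GGGCGG 1.63 (adjusted p of 0.001) and AGGTCA 0.604 (adjusted p of 0.004), and GGGTGTGG had 0.388 (adjusted p of 0.027). GTGGGC had 1.15 and did not pass (adjusted p of 0.18). In 5 classes of width, TGACTCA was found at 7.76% of common and 3.51% of WT-only sites of 26 to 112 bp, and at 9.75% of common and 9.04% of WT-only sites of 280 to 3684 bp. The narrowest class held 116 common sites and the widest 1056. In the widest class CAGATG was found at 19.0% of common and 19.6% of WT-only sites, and it was higher at common sites in every narrower class. GTGGGC was found at 12.6% of common and 11.9% of WT-only sites in the widest class. In the narrowest its shares were 1.72% and 4.44%, and in the classes between it was higher at common sites. In the WT-only class the share with TGACTCA rose with width through all 5 classes. Against sites shared with young cortex, the odds ratio of TGACTCA was 2.29 within classes of width (adjusted p of 1.4e-04).

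**Figure D4:**
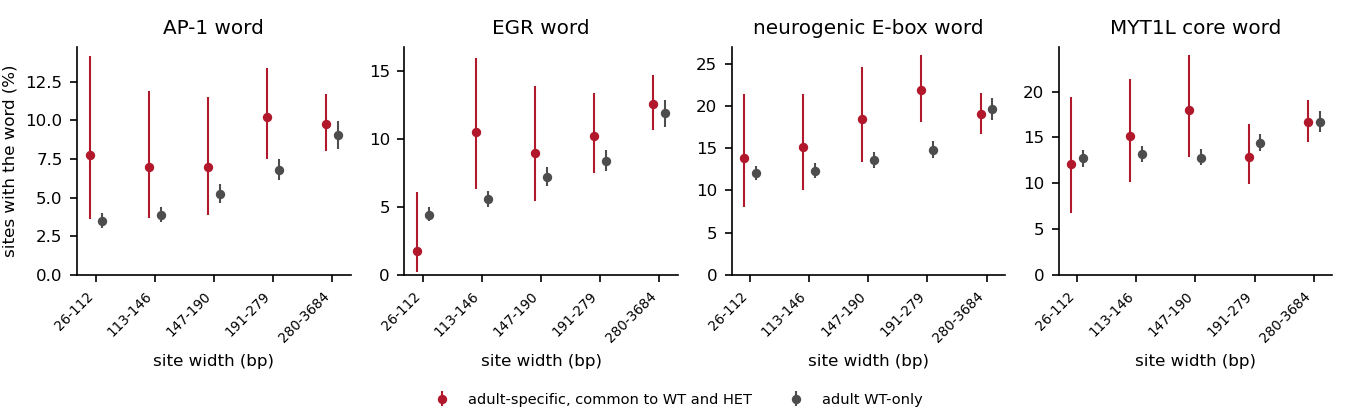
Percent of sites with the AP-1, EGR, neurogenic E-box and MYT1L words in 5 classes of site width in bp, for common sites (red) and WT-only sites (grey), with 95% exact binomial intervals. For AP-1, common sites have 7.76% and WT-only sites 3.51% in the narrowest class, and 9.75% and 9.04% in the widest.

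The words were also counted at the overlapped HET sites, whose windows largely cover the same DNA as those of the common sites. Midpoints lay within 75 bp at 66.2% of common sites, so this count is not a separate observation. In the 151 bp around the HET midpoints, TGACTCA was found at 165 of 2056 HET sites that overlapped a common site (8.03%) and at 1301 of 52614 HET-only sites (2.47%), an odds ratio of 3.44 (2.91 to 4.07). Within classes of HET site width it was 3.26 (2.72 to 3.90). The odds ratio within classes of width was 2.85 (2.44 to 3.34) for GTGGGC and 1.92 (1.71 to 2.16) for CAGATG. For AAAGTT it was 1.08 (0.950 to 1.22), with 15.7% of overlapped HET sites and 14.6% of HET-only sites holding it. This comparison was added after the WT values were seen and is given without a p-value. In windows across the genome the share of TGACTCA was 2.35%.

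The words were most frequent near the midpoints of the common sites, and near those of WT-only sites with lower peaks. TGACTCA occurred 3.74 times per 100 common sites in the 50 bp at the midpoint and 0.759 and 0.961 times in the bins 200 bp to either side. At WT-only sites it occurred 2.08 times at the midpoint and 0.850 and 0.900 times 200 bp away. GTGGGC occurred 4.55 times per 100 common sites at the midpoint and 2.07 and 1.82 times 200 bp away. CAGATG occurred 7.18 times at the midpoint, 7.38 times in the bin 50 bp to the higher side, and 4.35 and 4.70 times 200 bp away. AAAGTT had the flattest profile of the 4 at common sites, with 6.17 at the midpoint and 4.10 and 4.0 at 200 bp. At WT-only sites GTGGGC occurred 2.70 times at the midpoint and 1.98 times 200 bp to either side. CAGATG occurred 5.46 times there, against 4.49 and 4.11, and AAAGTT 5.21 times, against 4.18 and 4.25.

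**Figure D5:**
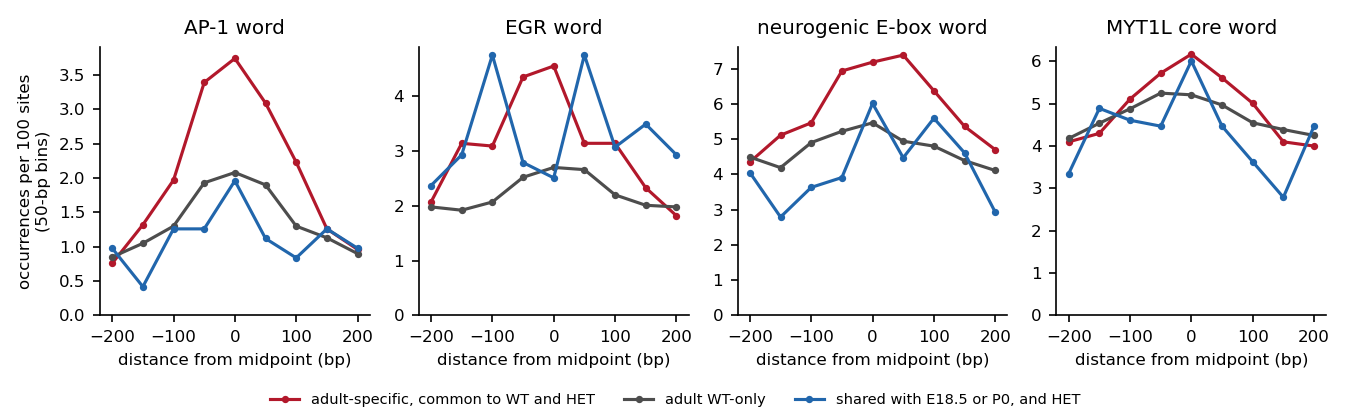
Occurrences of the AP-1, EGR, neurogenic E-box and MYT1L words per 100 sites in 50-bp bins against the distance from the site midpoint in bp, for common sites (red), WT-only sites (grey) and sites shared with young cortex and HET (blue). The AP-1 word peaks at 3.74 per 100 common sites at the midpoint, against 2.08 at WT-only sites.

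Among the common sites themselves TGACTCA had like shares at all genomic positions. It was found at 8.79% of promoter, 9.27% of intron, 9.11% of intergenic and 9.73% of exon common sites, with intervals that overlapped. With longer cores GTGGGC became more frequent, from 6.20% (4.22 to 8.73%) at cores of 1 to 83 bp through 10.2% and 12.3% to 14.7% (11.7 to 18.1%) at cores of 183 to 791 bp. The shares of TGACTCA over the same 4 classes were 9.71%, 7.17%, 8.69% and 11.3%. Those of AAAGTT were 14.5%, 16.3%, 14.5% and 16.9%, and neither word had an order. Site width was not held in these classes of core length. At WT-only sites the share of GTGGGC also rose with width, from 4.44% at 26 to 112 bp to 11.9% at 280 to 3684 bp. At least 1 of the AP-1, EGR, neurogenic E-box, MYT1L, MEF2 and octamer words was found at 938 common sites (47.4%), against 36.9% of WT-only sites and 38.4% of sites shared with young cortex. All of these words but AAAGTT were called higher against WT-only sites above, so the excess over WT-only sites is no further result. GGGCGG and CAGCTG, also called higher, were not pooled, and site width was not held. At 209 common sites (10.6%) there were 2 or more of them. TGACTCA stood beside CAGATG at 43 common sites, beside AAAGTT at 22 and beside GTGGGC at 16.

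A count of all 6-mers gave a view that did not start from known factors. Of all 6-mers, with both strands counted as 1 word, 182 (8.75%) were more frequent at common than at WT-only sites and 165 (7.93%) less frequent, by Fisher's exact test with adjustment over all 6-mers. A CpG was held by 34 of the 182 higher ones (18.7%) and by none of the 165 lower ones (0), against 604 of all 6-mers (29.0%). The 8 with the largest odds ratios were ACGCCT with 2.22, CGCCTC with 2.20, GCGGTA with 2.16, CGGTGC with 2.15, CGCCTA with 2.12, CCGCCC with 2.11, AACGCC with 2.07 and CGCCAA with 2.02. CGCCTC, for example, was found at 79 common sites (4.0%) and 1.85% of WT-only sites (adjusted p of 6.5e-07). The 8 with the smallest odds ratios were ATTAAT with 0.363, ATCAAT with 0.415, CAGGTA with 0.428, GGTCAA with 0.453, AGGTCA with 0.473, TATTAA with 0.476, CAGGTC with 0.484 and AAGGTC with 0.491. The median GC content of the windows was 41.7% at common and 39.7% at WT-only sites. The 6-mers were not compared within classes of site width or GC content.

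Few genes had a common site near a transcription start. Starts of any annotated transcript counted, including those inside a gene. Using the distance of the study, 5 kb from a transcription start, 293 of 21938 protein-coding genes (1.34%) were targets of a common site, through 287 of the 1977 sites. A single common site was found at 279 of these genes and 2 or 3 at the other 14. At 204 of them (69.6%) a different site within 5 kb was present in the E18.5 or P0 list, against 50.5% of all protein-coding genes, and 89 had none.

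The longest cores lay at genes of diverse function. The 20 longest measured 377 to 791 bp, with 6 at promoters, 7 in introns, 6 between genes and 1 in an exon. The longest, in an intron within 1 kb of the start of Crlf2, a cytokine receptor gene, spanned the whole HET site of 791 bp inside a WT site of 1000 bp (chr5:109557851-109558850), but a P0 or E18.5 site lay 120 bp away. At the promoter of Cic, which encodes a transcriptional repressor, the core was 627 bp of a HET site of 634 bp and a WT site of 685 bp (chr7:25267764-25268448), and the nearest young site was 9416 bp away. The core of 517 bp between Lin52, a subunit of the DREAM cell cycle complex, and Aldh6a1, a mitochondrial dehydrogenase gene, lay 17235 bp from any young site. Cores of 469 bp at Kmt5c, which encodes a histone H4 methyltransferase, and 382 bp at Hnrnpl, which encodes an RNA-binding protein, lay 216 and 151 bp from a young site. The core of 442 bp at the promoter of Hip1, a clathrin adaptor gene, was 36044 bp from one.

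Other long cores lay in introns or far from any start. A core of 445 bp lay in an intron of the overlapping gene model Gm37240, 68.2 kb downstream of the start of Fbxw7, which encodes a substrate receptor of a ubiquitin ligase. Dclk1, a microtubule-associated kinase of growing neurons, held a core of 432 bp with AAAGTT in an intron. Cers6, a ceramide synthase gene, held one of 414 bp with GTGGGC as well as CAGATG, and Adtrp one of 431 bp. Cores of 488 bp and 426 bp lay 520 kb from Celf2 and 96.1 kb from Npas2, a clock transcription factor gene. Others lay 401 kb from Fbxo33 (469 bp), 316 kb from Gm5152 (451 bp), 1006 kb from Slc10a2 (441 bp) and in an exon of a transcript 21.2 kb from the start of Sh3bgrl2 (427 bp). A core of 397 bp in an intron lay 22.9 kb from the start of Kcnt2, a potassium channel gene, and held AAAGTT as well as the MEF2 word CTATTTTTA. The last 3 of the 20 were cores of 378 bp at 380 kb from the AMPA receptor gene Gria2, 377 bp at 7.54 kb from Pdzrn4 and 377 bp at 8.72 kb from the myosin gene Myh4, where the promoter is that of another transcript. At the longer distances the nearest gene is a label of position only.

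By the length of common sites within 5 kb of a start, the leading gene was Astn1, which encodes an adhesion protein of migrating neurons, with 2 sites of 417 and 767 bp. It was followed by Crlf2 (1000 bp in 1 site), the ubiquitin ligase gene Herc3 (996 bp in 2 sites), Gm10354 (993 bp in 2 sites) and Kmt5c (803 bp). Cux1, a homeobox gene of upper cortical layers, had 1 site of 791 bp with AAAGTT. Zdhhc11 (789 bp), Adtrp (744 bp), the neighbours Ctxn1 and Timm44 (738 bp in the same 2 sites), Tarsl2 (713 bp in 2 sites), Ly86 (711 bp), Speer4d (708 bp in 3 sites), Arc (695 bp in 3 sites) and Aldh6a1 (686 bp) completed the first 15. Speer4d belongs to a multigene family, and 2 of its 3 sites were 94.2% and 68.2% repeat bases, so the copy from which its reads came is uncertain.

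Arc, the immediate early gene whose protein is made at active synapses, was among 10 places where 3 common sites followed each other within 10 kb. Its sites measured 135, 288 and 272 bp, lay 4915 bp downstream, 904 bp upstream and 5011 bp upstream of its start by their midpoints, and shared 77, 152 and 211 bp with HET sites. The nearest young site was 14732 bp or more away from each. Arc had no site within 5 kb of its start in the E18.5 or P0 lists. The core of the middle site, shown because Arc stood out after its values were seen, holds none of the words in capitals above:
Arc, chr15:74673420-74673571: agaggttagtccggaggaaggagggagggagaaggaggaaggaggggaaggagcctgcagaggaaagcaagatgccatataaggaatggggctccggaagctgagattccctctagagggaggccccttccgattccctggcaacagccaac

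The other groups of 3 lay near Pla2g2c (1535 bp of sites over 6750 bp), Tbl1xr1 (1459 bp over 11576 bp), Pum3 (1085 bp over 3588 bp), G6pd2, Zfp993, Glt8d2, C130026I21Rik, Speer4d and Vmn1r2. Tbl1xr1 encodes a subunit of the NCoR corepressor. Several of the rest are members of multigene families. A further 94 groups held 2 sites, and 1759 common sites (89.0%) stood alone.

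Lists of neuronal and glial genes were compared with the 1.34% of all protein-coding genes that were targets. Of 40 pan-neuronal genes 5 were targets (12.5%), namely the cytoskeletal genes Map2 and Ank3, the growth cone gene Gap43, the synaptic vesicle gene Vamp2 and the RNA-binding gene Celf4. WT-only sites were within 5 kb of 52.5% of the same list and of 15.1% of all genes, and within 5 kb of 44.0% of the cortical layer, 48.5% of the synaptic adhesion, 39.0% of the autism-associated and 22.2% of the immediate early genes used below. These lists thus held many targets of adult sites of another class as well. Of 27 immediate early genes 2 were targets (7.41%), Arc and Npas4, a transcription factor gene induced by activity. The Npas4 site of 242 bp, 2798 bp upstream of its start, holds TGACTCA and GGGCGG, and a young site lay 3069 bp away. Of 25 cortical layer genes 2 were targets, Cux1 and Foxp1, and of 33 synaptic adhesion genes 2, Lrrc4c and Opcml. Of 30 activity-induced effectors Dclk1 was the target, through 2 sites that overlapped the same HET site. Of 59 autism-associated genes 3 were targets (5.08%), Ank3, Foxp1 and the sodium channel gene Scn2a. Of 32 Notch pathway genes 1 was a target, Hes5, which encodes a repressor of neurogenesis, 3442 bp upstream of its start.

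No target (0) was found among 25 interneuron genes, 18 glutamate receptor genes, 15 GABA-A receptor genes, 36 potassium and 18 calcium channel genes, 50 Wnt pathway genes, 20 astrocyte, 22 oligodendrocyte lineage, 22 microglia, 25 endothelial and mural and 39 heart and skeletal muscle genes, or the 3 MYT family genes. At a rate of 1.34% lists of this size would hold few targets or none, so these zeros say little. The lists were written with earlier results of these data known, and no test was run on them.

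The values at the sites named by these lists were modest. A start here is that of any transcript of the gene, and it can lie deep inside the gene. The Ank3 gene, for example, begins at chr10:69398773 and its site at chr10:69897858. The Map2 site of 363 bp lay in an intron, 1859 bp from a start, with a core of 196 bp and AAAGTT. The Ank3 site of 285 bp lay 131 bp upstream of a start, with a core of 96 bp and GTGGGC as well as CAGATG, 21693 bp from any young site. The Foxp1 site of 140 bp lay 37 bp downstream of a start, with a core of 77 bp and AAAGTT, and a young site was 665 bp away. The Gap43 site of 219 bp had a core of 90 bp and a young site 269 bp away. The Opcml site of 582 bp had a core of 130 bp, and its window held GTGGGC as well as CAGATG. The words of this paragraph were scored in windows at the WT midpoint, so they need not lie in the core. The Scn2a site of 295 bp had a core of 139 bp and none of the words, and the nearest young site was 53342 bp away.

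The X chromosome held few common sites, a feature chosen after its values were seen. There were 27 of them among 1165 adult WT sites on X (2.32%, 1.53 to 3.35%), against 1949 of 30947 on the autosomes (6.30%), where the share ranged from 5.35 to 7.08%. Sites shared with young cortex and HET were 0.858% of adult WT sites on X and 2.28% on the autosomes. The HET list had 10.7 sites per Mb on X and 23.0 on the autosomes, and the WT list 7.13 and 12.9, so both lists were sparser on X. Sex was not given, and its part in this was not tested.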

How the data were processed

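MYT1L and control IgG CUT&RUN libraries were made from 3 animals in each of 4 groups (adult HET, adult WT, P0 WT and E18.5 WT), 24 libraries in all. By the study's methods the reads went through the nf-core/cutandrun pipeline, and the authors' lists use mm10 coordinates. The deposited files are 4 site lists, 1 per group, merged over replicates, with a chromosome, a start and an end for each site and no score or depth. How sites were called, at what threshold and whether IgG served as background is not given in the sources used here. A list merged over libraries keeps neither the depth nor the number of animals behind a site, so precision is given only as 95% exact binomial intervals over sites, which cover counting error alone.

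Sites were compared by shared bases. Midpoints were annotated with GENCODE gene models, in the order promoter, exon (transcript ends included), intron and intergenic, and repeats were read as soft-masked bases of the same build. Words were scored on both strands in 151 bp around the midpoint. A word can share bases with a neighbour (GTGGGC with GGGCGG), and both E-boxes of the form CANNTG with a palindromic centre, the homeobox word and the TA-rich word read the same on both strands. The genome share of a word is that in every 10th window of 151 bp. Shares were compared by two-sided Fisher's exact tests, by Cochran-Mantel-Haenszel tests within 10 strata of site width or GC content, and by an exact McNemar test for the flank, each with Benjamini-Hochberg adjustment over its family (52 word, 8 position and 2 repeat tests, and all 6-mers together). The 6-mers and the flanks were compared without strata. The tests were checked on simulated data. A protein-coding gene counted as a target when any of its transcription starts had a site no more than 5 kb away.

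Genes were named by fixed rules: the 15 with the most common-site bases within 5 kb, those at the 20 longest cores, those of groups of 3 or more sites within 10 kb, and up to 5 targets of each list. Of 541 list entries 539 were matched to gene models. Members, words and lists were chosen with earlier results of these data known. Alternatives were the overlap (50 bp, or at least 50% of both sites), a margin of 1 kb to young sites, the window (250 bp each side, or the shared core), repeat-poor sites, gene models and target distance. For the shared core, only the windows of common sites were moved, and the other classes kept windows at the WT midpoint. Python, numpy, pandas and scipy were used.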

Additional observations from a re-analysis of the deposited data

How the results depend on the processing

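The number of common sites was 843 when at least 50% of both sites had to be shared, with 142 target genes, 6 of them in the gene lists, 142 6-mers called and 7 words called against WT-only sites, and these lower counts come with fewer sites. Requiring 50 bp, or no young site within 1 kb, kept these counts within 1.5 times. Target genes numbered 92 within 1 kb and 496 within 10 kb of a start. Within classes of site width, an alternative added for the words after seeing the data, 5 words were called against WT-only sites, and within classes of GC content 7 against sites shared with young cortex. The intron odds ratio against WT-only sites was 1.09 (adjusted p of 0.14) within classes of width and 1.04 (adjusted p of 0.49) with protein-coding transcripts only, and the intergenic one 0.950 (adjusted p of 0.39) and 0.955 (adjusted p of 0.49). The exon odds ratio was 0.706 (adjusted p of 0.044) with at least 50% of both sites shared. Counting any repeat base turned the repeat odds ratio against WT-only sites to 1.43, and that against sites shared with young cortex was 2.05. Within classes of width the first was 0.674. For AAAGTT against WT-only sites the odds ratio was 1.19 (adjusted p of 0.024) with 50 bp shared, 1.29 (adjusted p of 5.8e-04) within classes of GC content and 1.22 (adjusted p of 0.005) on the shared core. Against sites shared with young cortex it was 1.38 (adjusted p of 0.0013) with 250 bp on each side, 1.34 (adjusted p of 0.045) on the shared core and 0.826 (adjusted p of 0.28), in the other direction, within classes of GC content. On the shared core only the windows of common sites were moved, so those values compare unlike windows. TATATA against WT-only sites turned to 1.02 within classes of width and 1.14 within classes of GC content, without a call. Where no construction explains a change, the cause was not tested. Of the other values, 65 tested shares of position, repeats and AAAGTT kept their direction and side of the threshold, and 28 counts or medians stayed within 1.5 times, or 1 SD for core length. For the other called words taken one at a time, 148 odds ratios kept their call, 32 lost it and the 2 of TATATA turned. With at least 50% of both sites shared, TGACTCA against sites shared with young cortex was 1.90 (adjusted p of 0.054). Against WT-only sites ATTTGCAT was 1.40 (adjusted p of 0.063) with no young site within 1 kb and CTATTTTTA 1.27 (adjusted p of 0.14) with 250 bp on each side.

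Leaving out a replicate was not possible, since each list is merged over its libraries. No paired analysis was possible because the merged lists carry no replicate. Depth and the number of animals behind a site are unknown, so a site missing from a list was not shown to be unbound.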
